A study of Homo sapiens with 9 samples.

Results

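The genes described here are 8 sensors of double-stranded RNA and their direct partners: RIGI, IFIH1, DHX58, MAVS, TLR3, EIF2AK2, ZBP1 and ADAR. They were chosen by name, as the rows of the count files whose Ensembl identifiers carry these symbols, and all 8 were found among the 60617 genes listed. RNA-seq was performed on PC-3 cells, an epithelial cell line from a prostate cancer metastasis, in 3 groups of 3 libraries. Controls, labelled Ctrl, received vehicle. The decitabine group, labelled Dec, received 1 µM decitabine, an inhibitor of DNA methyltransferases, and the combination group, labelled Dec_Sam, received 1 µM decitabine together with 200 µM S-adenosylmethionine (SAM), the methyl donor of those enzymes. All cells were harvested after 5 days, so every group is 1 cell line at 1 time point. Libraries of cells given SAM alone were not analysed here.

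Cells detect long double-stranded RNA, a product of viral replication that can also arise from transcripts of the genome itself, through receptors that start an interferon response. RIG-I (RIGI) and MDA5 (IFIH1) are RNA helicases of the cytosol that bind such RNA and pass the signal to MAVS, an adaptor on the outer mitochondrial membrane, whereas LGP2 (DHX58) is a related helicase without the signalling domain. TLR3 detects the same ligand in endosomes and is therefore not a cytosolic sensor. PKR (EIF2AK2) phosphorylates the translation factor eIF2α when it binds double-stranded RNA, ZBP1 binds RNA in the left-handed Z form and can start cell death through RIPK3, and ADAR edits adenosine to inosine in double-stranded RNA and so makes it a poorer ligand. Several of these genes are themselves induced by interferon.

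In human genome build GRCh38, RIGI (ENSG00000107201) lies on the minus strand at chr9:32455302-32526208 and IFIH1 (ENSG00000115267) on the minus strand at chr2:162267074-162318684. DHX58 (ENSG00000108771) lies on the minus strand at chr17:42101404-42112714, MAVS (ENSG00000088888) on the plus strand at chr20:3846799-3876123 and TLR3 (ENSG00000164342) on the plus strand at chr4:186068911-186088073. EIF2AK2 (ENSG00000055332) occupies the minus strand at chr2:37099210-37157522, ZBP1 (ENSG00000124256) the minus strand at chr20:57603846-57620576 and ADAR (ENSG00000160710) the minus strand at chr1:154581695-154628013. Counts are per gene, so the interferon-induced and the constitutive transcript of ADAR cannot be told apart. Exons of EIF2AK2 overlap exons of GPATCH11 on the opposite strand, which had at most 674 counts in a library, and whether the counting used strand is not given in the sources used here.

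Upstream sequences from RefSeq (GRCh38.p14) were at hand for 6 of the 8 genes, with 3 windows for ADAR, and not for DHX58 and ZBP1. The 250 bases before the first transcribed base are shown for the helicase receptors, which had the largest differences among the well-expressed sensors, for TLR3, which was almost silent in controls, and for MAVS, which moved the other way. They read 5′ to 3′ on the strand of the gene, from chr2:162318685-162318934 for IFIH1, chr9:32526197-32526446 for RIGI (both minus strand), chr4:186068906-186069155 for TLR3 and chr20:3846584-3846833 for MAVS (both plus strand). Capitals mark matches to the core of an interferon-stimulated response element, searched on both strands as GAAA, any 2 bases, and GAAA again.
IFIH1: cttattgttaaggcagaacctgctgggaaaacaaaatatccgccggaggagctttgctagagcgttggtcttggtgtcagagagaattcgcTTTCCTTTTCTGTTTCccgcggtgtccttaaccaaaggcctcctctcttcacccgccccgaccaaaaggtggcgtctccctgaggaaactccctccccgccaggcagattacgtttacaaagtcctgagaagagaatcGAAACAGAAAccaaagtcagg
RIGI: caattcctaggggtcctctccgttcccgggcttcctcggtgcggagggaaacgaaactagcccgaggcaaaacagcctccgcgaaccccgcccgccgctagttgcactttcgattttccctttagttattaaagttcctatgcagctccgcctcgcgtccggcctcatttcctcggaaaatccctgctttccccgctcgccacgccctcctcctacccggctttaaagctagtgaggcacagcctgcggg
TLR3: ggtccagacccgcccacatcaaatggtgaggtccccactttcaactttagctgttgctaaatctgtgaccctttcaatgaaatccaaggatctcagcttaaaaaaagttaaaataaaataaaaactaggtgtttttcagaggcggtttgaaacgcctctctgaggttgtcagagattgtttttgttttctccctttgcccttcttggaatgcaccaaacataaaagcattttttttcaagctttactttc
MAVS: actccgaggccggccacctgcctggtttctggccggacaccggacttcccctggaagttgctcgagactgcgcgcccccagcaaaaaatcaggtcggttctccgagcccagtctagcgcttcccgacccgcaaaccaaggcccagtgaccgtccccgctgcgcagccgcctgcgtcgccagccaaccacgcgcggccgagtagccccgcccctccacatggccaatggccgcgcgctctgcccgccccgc
The IFIH1 window held 3 matches, starting 159, 153 and 21 bases before the first transcribed base, of which the first and second overlap. No match lying wholly within the window was found for RIGI, TLR3, MAVS, EIF2AK2 or ADAR. A match that crossed the end of a window was missed by this search, and the EIF2AK2 window ended in GAAA and 2 more bases. The RIGI window held gaaacgaaa, in which the GAAA stretches lie closer together than the search allowed. The lack of a match therefore does not show that these genes have no such element. Among all 35116 RefSeq windows of this length, 3.02% held a match. Counted by gene, with a match in any window of the gene, the share was 3.71% of 27305 genes. Among 18 genes of a list of interferon-stimulated genes with a window, 12 had a match when counted by gene. A match is a stretch of letters, and binding was not measured. The windows also differed in CpG dinucleotides, the sites that DNA methyltransferases act on. MAVS had 28, RIGI and EIF2AK2 22 each, IFIH1 12, TLR3 3 and the ADAR windows 9, 12 and 12. The median over all windows was 11.

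Library totals ranged from 21934307 to 22489684 estimated counts. Expression is given as CPM (counts relative to the library total) with the trimmed mean of M-values (TMM) scaling, which corrects for the composition of each library. The scaling factors were 0.895 to 0.902 in controls and 1.033 to 1.078 in treated libraries. Among the combination libraries, replicate 3 stood apart for the genes described here: the median of 22 interferon-stimulated genes lay 2.64 above the control mean on the log2 scale in that library, against 1.02 and 1.25 in replicates 1 and 2, and against 3.72 to 3.94 in the decitabine libraries. Several results of the combination group are therefore given with and without this library, and the others include it. KRT8, KRT18, KRT19 and EPCAM, markers of epithelial cells, summed to 873 to 954 CPM in controls, 854 to 906 CPM with decitabine and 709 to 852 CPM with the combination, and with each treatment 1 of the 4 rose and 2 fell. The summed level of 7 leukocyte markers, of which 2 had enough counts to be tested and both rose with each treatment, was 0.494 to 0.55 CPM in controls, 1.94 to 2.7 CPM with decitabine and 1.8 to 2.17 CPM with the combination, with CD3E at 0 in controls. All 4 fibroblast markers rose with each treatment, from a summed 4.39 to 6.35 CPM in controls to 86.8 to 129 CPM with decitabine and 77.3 to 104 CPM with the combination, and the 2 of 3 endothelial markers that were tested rose as well (summed over 3 markers, 9.88 to 10.6 CPM in controls, 31 to 41.7 CPM with decitabine and 36.6 to 43.8 CPM with the combination). Every library was made from cultured PC-3 cells, a single cell line. The part of other cell types in the results was not tested, and in bulk RNA more cells of a type and more RNA per cell cannot be told apart. KLK3 had no counts in any library.

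**Figure D1:**
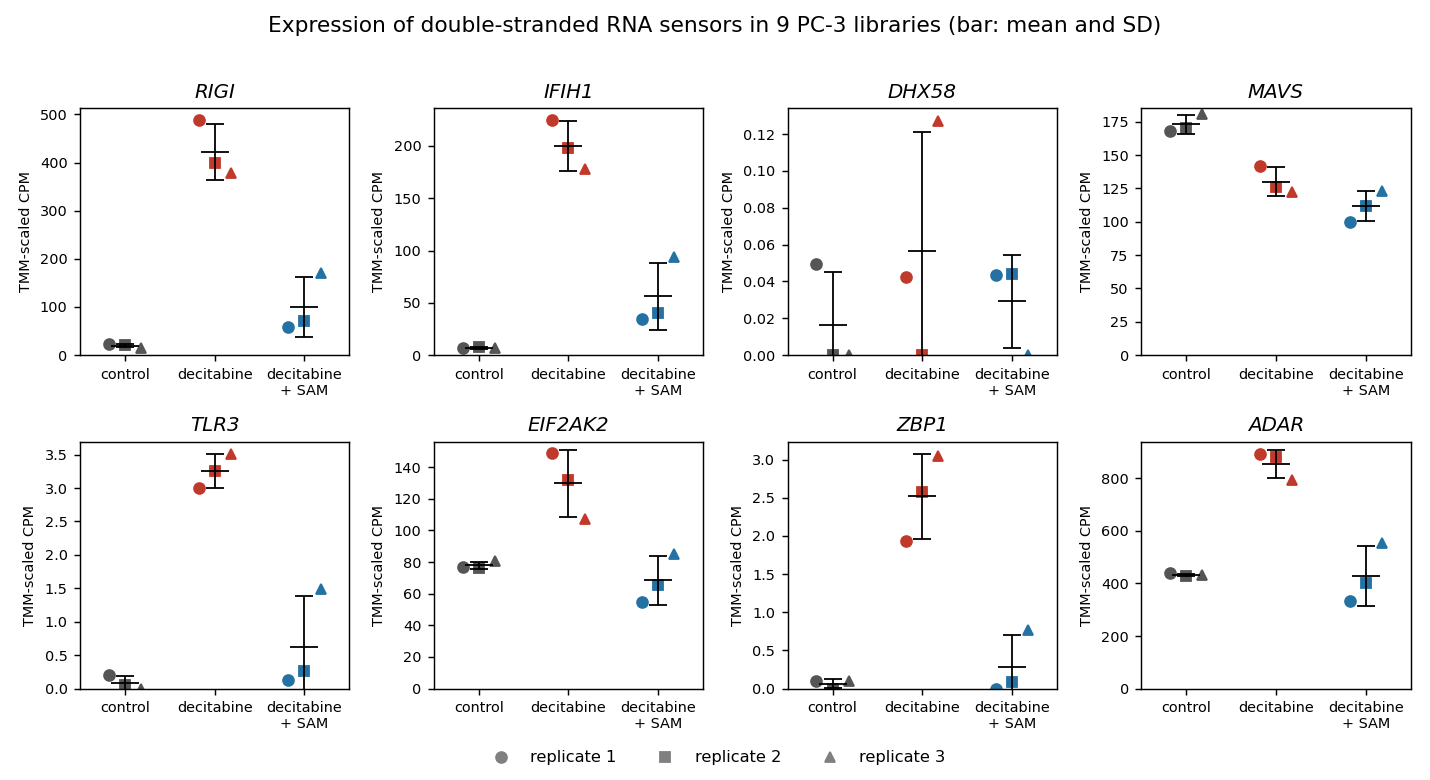
TMM-scaled CPM (linear axes starting at 0, 1 scale per gene) of the 8 genes in each of 9 libraries; symbols give the replicate, and bars the mean and SD of 3 libraries. RIGI, IFIH1, TLR3, EIF2AK2, ZBP1 and ADAR were higher in all decitabine libraries than in all controls, MAVS was lower, and DHX58 stayed at or below 0.127 CPM.

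Decitabine was compared with controls to find which sensors differ in treated cells. RIGI, IFIH1, TLR3, EIF2AK2, ZBP1 and ADAR rose and MAVS fell, in each case without overlap between the groups. The share of all genes tested without such overlap was not counted, so the lack of overlap is a description only. The increases ranged from 28.6-fold for IFIH1 among the well-expressed genes to 1.66-fold for EIF2AK2. DHX58 was close to 0 everywhere and was not tested. So 6 of the 7 genes tested were called higher and 1 lower by edgeR's quasi-likelihood test at an adjusted p under 0.05, a threshold that 36.3% of all 18532 genes tested passed upwards and 32.5% downwards. The members' log2 fold changes had a median of 4.42, beside 0.035 over all genes tested. TLR3 and ZBP1 passed the filter on low counts only because of the treated libraries, so they had to differ, and the count and the median are a description only.

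Adding SAM to decitabine was compared with both other groups. The combination libraries lay between controls and decitabine for RIGI and IFIH1, and near the controls for EIF2AK2 and ADAR. Against decitabine alone, 6 of the 7 genes were lower and none was higher, where 8.02% of all genes tested were called lower and 7.67% higher; without combination replicate 3, all 7 were lower. The count was 3 in the fit of the 6 treated libraries alone and without decitabine replicate 1 or combination replicate 1. It was 2 without decitabine replicate 2 or combination replicate 2. TLR3 and ZBP1 passed the filter on low counts mainly through the decitabine libraries, so their being lower was largely fixed in advance. These counts are therefore a description only. Against controls, RIGI, IFIH1 and TLR3 were higher and MAVS was lower, where 35.9% of all genes tested were called higher and 31.3% lower. Leaving out combination replicate 3 changed this to 2 higher (RIGI and IFIH1) and 3 lower (MAVS, EIF2AK2 and ADAR). The comparisons share libraries and are given side by side for each gene.

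**Figure D2:**
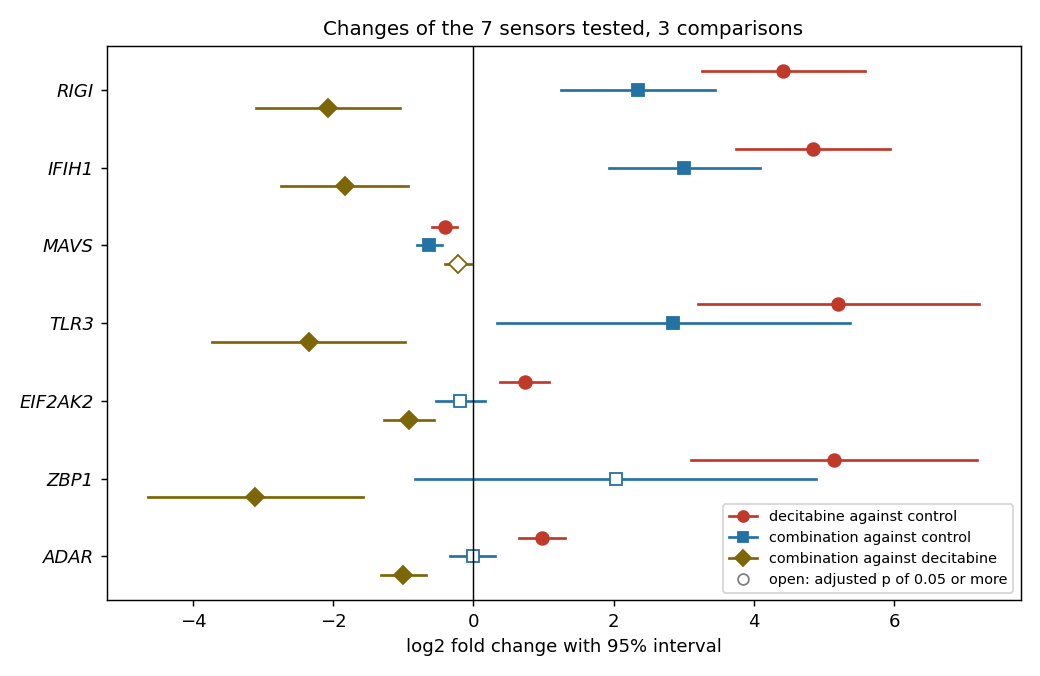
Log2 fold changes (horizontal axis) of the 7 genes tested in 3 comparisons, with 95% intervals from edgeR's quasi-likelihood fit over 9 libraries; open symbols mark an adjusted p of 0.05 or more. All genes but MAVS lay to the right of 0 for decitabine against control, and all 7 lay to the left of 0 for the combination against decitabine, MAVS with an open symbol.

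RIGI encodes the receptor for RNA with 5′-triphosphate ends. It stood at 22.5, 21.2 and 15.4 CPM in control replicates 1 to 3, at 489, 399 and 378 CPM with decitabine and at 59.1, 70.0 and 171 CPM with the combination. All treated libraries were above all controls, all combination libraries were below all decitabine libraries, and combination replicate 3 was the highest of its group. The increase with decitabine was 21.4-fold (95% interval 9.55 to 48.2; log2 fold change 4.42, SE 0.48, edgeR adjusted p = 0.00019). With the combination it was 5.09-fold (2.38 to 10.9; adjusted p = 0.0035 in edgeR). The combination libraries were 4.22-fold lower than the decitabine libraries (log2 fold change -2.08, SE 0.43, edgeR adjusted p = 0.024). That last call was lost when the 6 treated libraries were fitted alone (adjusted p = 0.064), and also without decitabine replicate 1 (0.071) or 2 (0.078) or combination replicate 1 (0.065) or 2 (0.094), while the direction held.

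IFIH1 encodes MDA5, the receptor for long double-stranded RNA, and carried the response-element matches shown above. Its control libraries had 6.8, 7.75 and 6.42 CPM, its decitabine libraries 225, 198 and 178 CPM and its combination libraries 34.5, 40.3 and 93.4 CPM. The 3 groups did not overlap, and the order within the combination group was that of RIGI. IFIH1 rose 28.6-fold with decitabine (13.3 to 61.3; log2 fold change 4.84, SE 0.46, edgeR adjusted p = 8.4e-05) and 8.02-fold with the combination (3.81 to 16.9; edgeR adjusted p = 0.00091). Between the treatments it fell by 1.83 on the log2 scale (SE 0.38, edgeR adjusted p = 0.024). As for RIGI, this difference missed the threshold in the fit of 6 libraries (adjusted p = 0.068) and without decitabine replicate 1 (0.071) or 2 (0.079) or combination replicate 1 (0.059) or 2 (0.09). Without combination replicate 3, the increases over controls were 2.42 for IFIH1 and 1.71 for RIGI on the log2 scale.

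DHX58, the third helicase of the family, had 1, 0 and 0 counts in the controls, 1, 0 and 3 with decitabine and 1, 1 and 0 with the combination. The decitabine to control ratio of these sums was 3.4, with a 95% counting interval from 0.337 to 167, so no difference was detectable at this depth. A sum of 3 counts over a group corresponds to 0.0422 to 0.0496 CPM. DHX58 was the lowest of the 8 genes per kilobase in all 3 groups.

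MAVS, the adaptor that RIG-I and MDA5 share, had 168, 170 and 181 CPM in controls, 142, 126 and 122 CPM with decitabine and 100, 112 and 123 CPM with the combination. Every treated library was below every control, and the treatments overlapped each other. It fell by 0.41 on the log2 scale with decitabine (SE 0.08, edgeR adjusted p = 0.00056) and by 0.63 with the combination (SE 0.08, adjusted p = 1.4e-05). The difference between the treatments was -0.22 (95% interval -0.4 to -0.04, edgeR adjusted p = 0.093), and it was called without combination replicate 3 (-0.29, adjusted p = 0.024). Scaling by library size alone, which shifted the median of all genes from 0.035 to 0.281 for decitabine against control, reduced the decitabine difference of MAVS to -0.17 (adjusted p = 0.11). The fall of MAVS with decitabine is thus relative to the typical gene of these libraries, and that with the combination was called under both scalings.

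TLR3, the endosomal receptor, was close to the detection limit in controls, with 4, 1 and 0 counts. Decitabine libraries had 71, 77 and 83 counts (3 to 3.51 CPM), and combination libraries had 3, 6.1 and 35 counts (0.131, 0.264 and 1.49 CPM). The decitabine libraries were all above the others, the combination libraries overlapped the controls, and replicate 3 held most counts of the combination group. From summed counts, TLR3 was 39.3-fold higher with decitabine than in controls (95% counting interval 16.6 to 122), and the test gave a log2 fold change of 5.2 (SE 0.89, edgeR adjusted p = 0.00054). Against controls, the combination gave 2.85 (SE 1.11, adjusted p = 0.045 in edgeR) with all libraries and 1.19 (adjusted p = 0.2) without combination replicate 3. It also missed the threshold without control replicate 2 (adjusted p = 0.13) or 3 (0.13) and without each decitabine replicate in turn (0.065 to 0.068). Between the treatments TLR3 fell by 2.35 (SE 0.61, edgeR adjusted p = 0.032). This call was lost with DESeq2 (adjusted p = 0.073), in the fit of 6 libraries (0.054), and without control replicate 2, each decitabine replicate or combination replicate 1 or 2 (0.057 to 0.12). TLR3 passed the filter on low counts only through treated libraries, mainly those with decitabine alone. It therefore had to differ, and its p-values are a description only.

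EIF2AK2, which encodes PKR, was expressed in all groups. Controls had 77.2, 76.5 and 80.5 CPM, decitabine libraries 149, 132 and 107 CPM and combination libraries 55, 65.5 and 85.4 CPM. Decitabine libraries were all higher than the rest, whereas the combination libraries lay on both sides of the controls. The increase with decitabine was 1.66-fold (1.3 to 2.12; log2 fold change 0.73, SE 0.16, edgeR adjusted p = 0.002). The combination differed from controls by -0.19 (95% interval -0.54 to 0.17, edgeR adjusted p = 0.32), a difference that turned to 0.04 with library size as the only scaling and passed the threshold at -0.38 (adjusted p = 0.018) without combination replicate 3. Against decitabine alone EIF2AK2 was 1.89-fold lower with the combination (log2 fold change -0.92, SE 0.16, edgeR adjusted p = 0.006), and this call held without any single library.

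ZBP1, the Z-RNA sensor, had 2, 0 and 2 counts in controls and 46, 61 and 72 counts with decitabine (1.94, 2.57 and 3.05 CPM). The combination libraries had 0, 2 and 18 counts. Again the decitabine libraries lay above all others, and 1 combination library supplied nearly all counts of its group. By summed counts the decitabine level was 38-fold the control level (95% counting interval 14.6 to 141; log2 fold change 5.14, SE 0.91, edgeR adjusted p = 0.00057). The combination was not called against controls (2.03, SE 1.28, 95% interval -0.83 to 4.89, edgeR adjusted p = 0.18), and the value was -0.54 (adjusted p = 0.71) without combination replicate 3 and 2.59 (adjusted p = 0.03) without combination replicate 1. Between the treatments ZBP1 fell by 3.11 (SE 0.69, edgeR adjusted p = 0.016). DESeq2 gave this difference an adjusted p of 0.064, and it was also lost without decitabine replicate 2 (0.063) or combination replicate 2 (0.072). Like TLR3, ZBP1 passed the filter mainly through the decitabine libraries and had to differ, so its p-values are a description only.

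ADAR had the highest level per kilobase of the 8 genes in every group. Its controls were close together at 438, 430 and 431 CPM, the decitabine libraries had 892, 880 and 795 CPM, and the combination libraries 333, 400 and 554 CPM. The decitabine libraries were all higher than the others, and the combination libraries spread from below to above the controls. The increase with decitabine was 1.98-fold (1.57 to 2.48; log2 fold change 0.98, SE 0.15, edgeR adjusted p = 0.00013). Against controls the combination gave -0.01 (95% interval -0.34 to 0.31, edgeR adjusted p = 0.95), a value that changed sign with the scaling and passed the threshold at -0.24 (adjusted p = 0.023) without combination replicate 3. The combination libraries were 1.99-fold lower than the decitabine libraries (log2 fold change -1, SE 0.15, edgeR adjusted p = 0.0026), also without any single library.

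Per kilobase of merged exons, the order of the levels differed between the groups. In controls it was ADAR (35.4 CPM per kilobase), MAVS (14.7), EIF2AK2 (7.07), RIGI (1.9) and IFIH1 (1.34), followed by ZBP1 (0.0122), TLR3 (0.0111) and DHX58 (0.00433). The adaptor thus exceeded both helicase receptors in untreated cells. The 3 lowest genes overlapped each other, and the lowest RIGI library met the highest IFIH1 library at 1.48. With decitabine, RIGI (40.8) and IFIH1 (38.3) followed ADAR (69.9) and stood above EIF2AK2 (11.7) and MAVS (11.1). The libraries of RIGI and IFIH1 overlapped, as did those of EIF2AK2 and MAVS and those of ZBP1 (0.467) and TLR3 (0.434). In the combination group ADAR (35.1) was followed by IFIH1 (10.7), RIGI (9.67), MAVS (9.5) and EIF2AK2 (6.22), of which IFIH1, RIGI and MAVS overlapped. With the longest transcript as the length, RIGI and IFIH1 changed places in the combination group. On that length RIGI lay above IFIH1 without overlap in controls (3.09 to 4.53 against 1.73 to 2.09) and with decitabine (76.2 to 98.6 against 47.8 to 60.6). RIGI also lay above MAVS without overlap in the combination group (11.9 to 34.5 against 8.55 to 10.5). The contact or overlap of these pairs was thus found with merged exons and not with the longest transcript.

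The profiles over the libraries were then compared. On the log2 scale relative to the control mean, RIGI lay between 4.28 and 4.65 in the decitabine libraries and at 1.6, 1.85 and 3.13 in the combination libraries, and IFIH1 between 4.65 and 4.99 and at 2.29, 2.52 and 3.73. TLR3, ZBP1, EIF2AK2 and ADAR were likewise highest in the decitabine libraries, with combination replicate 3 the highest of its group. EIF2AK2 (-0.5 and -0.25) and ADAR (-0.38 and -0.11) lay below the control mean in combination replicates 1 and 2. MAVS differed in that it was below its control mean in every treated library. The genes with the most similar profiles, by root mean square difference over the 9 libraries in log2 units, were IFIT1 (0.14), OAS2 (0.18) and SAMD9 (0.23) for RIGI and OAS1 (0.14), TMEM140 (0.19) and SAMD9 (0.27) for IFIH1. For EIF2AK2 they were IFIT5 (0.11), NCSTN (0.12) and CASP8 (0.14), and for ADAR they were MOV10 (0.12), C4orf33 (0.13) and TRIM56 (0.15). The low counts of TLR3 and ZBP1 left larger distances, with SAMD9L (0.4), GBP4 (0.43) and OR52K3P (0.44) nearest to TLR3 and LINC01285 (0.47), TRANK1 (0.61) and NLRC5 (0.7) nearest to ZBP1. MAVS was nearest to C1orf216 (0.05), DNMBP (0.05) and GCN1 (0.06). When only the 6 treated libraries were used, 3 of these 21 genes stayed among the nearest.

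**Figure D3:**
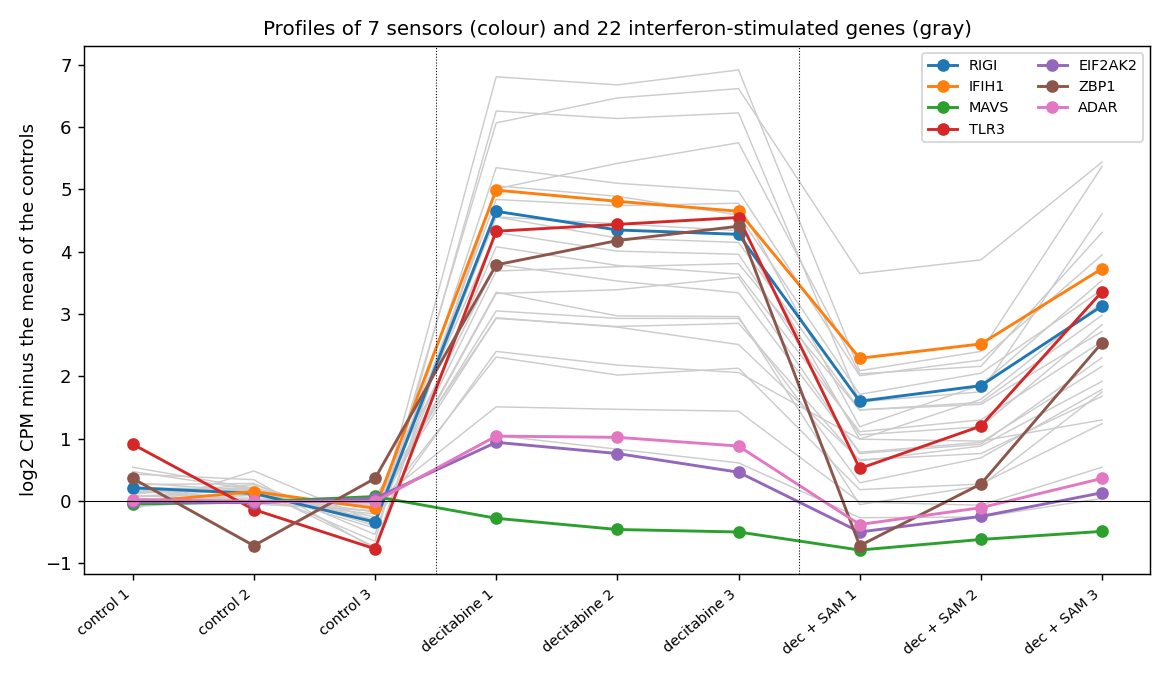
Log2 CPM minus the mean of the controls (vertical axis) for 7 sensors (coloured) and 22 interferon-stimulated genes (gray) in each of 9 libraries; lines join the libraries of 1 gene and imply no order. The sensors other than MAVS shared with the gray lines their highest values with decitabine, and combination replicate 3 above replicates 1 and 2. EIF2AK2 and ADAR rose less with decitabine than most gray lines and lay below 0 in combination replicates 1 and 2. MAVS was below 0 in all treated libraries.

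The partners of the sensors were described with 10 lists of 108 genes, of which 103 were tested. With decitabine 50 rose and 28 fell, and with the combination 41 rose and 27 fell, counts to be read against the 36.3% of all genes tested that rose and 32.5% that fell with decitabine and the 35.9% and 31.3% with the combination. Against decitabine alone, 5 were higher and 32 lower in the combination group, where 7.67% of all genes tested were higher and 8.02% lower. These counts were 6 and 43 without combination replicate 3. The lower genes numbered 17 in the fit of the 6 treated libraries alone and 15, 12, 19, 14 and 10 without decitabine replicates 1, 2 and 3 and combination replicates 1 and 2. The median log2 fold changes were 0.23, 0.18 and -0.11. With library size as the only scaling, the calls split into 65 higher and 18 lower for decitabine and 56 and 22 for the combination.

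Interferon-stimulated genes are the end of the pathway. All 22 rose with decitabine (median of their log2 fold changes, 3.78) and 18 with the combination (median 1.87). Without combination replicate 3, 18 were higher and 1 lower with the combination (median 1.16). Of all genes tested, 36.3% rose with decitabine and 35.9% with the combination, and this list was chosen with earlier results of these data known. The largest changes with decitabine were those of RSAD2 (6.83, SE 1.17, edgeR adjusted p = 0.002), which encodes the antiviral enzyme viperin, IFI27 (6.39, SE 0.66, adjusted p = 0.00015) and the GTPase gene MX2 (6.21, SE 1.05, adjusted p = 0.0019). With the combination they were IFI27 (4.54), RSAD2 (4.1) and MX2 (3.36), with edgeR adjusted p of 0.00065, 0.019 and 0.035, of which RSAD2 was not called without any 1 of the controls (0.056 to 0.063) and MX2 without any 1 of the controls or decitabine libraries (0.054 to 0.1). Of all genes tested, 8.02% were called lower between the treatments. In this list 18 of the 22 fell, with a median of -2.08, among them MX1 (-2.28), XAF1 (-2.25) and IFIT3 (-2.23). This count depended on the libraries: it was 22 without combination replicate 3, 7 and 5 without combination replicates 1 and 2, 5, 5 and 10 without decitabine replicates 1, 2 and 3, and 13, 11 and 13 without control replicates 1, 2 and 3.

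OAS1, OAS2 and OAS3 encode enzymes that double-stranded RNA activates to make 2′-5′-oligoadenylate, the activator of RNase L. Of all genes tested, 36.3% rose and 32.5% fell with decitabine, and 35.9% and 31.3% with the combination. In the OAS and RNase L list of 7 genes 5 rose and 1 fell with each treatment. OASL (4.89, SE 0.76, edgeR adjusted p = 0.0012), OAS1 (4.84, SE 0.39, adjusted p = 3.2e-05) and OAS2 (4.37, SE 0.57, adjusted p = 0.00048) rose most with decitabine, and OAS1 (3.05), OASL (2.64, not called without any 1 of the controls) and OAS3 (2.21) with the combination. OAS1 had 20.9, 18.2 and 15.4 CPM in controls, 563, 494 and 498 CPM with decitabine and 104, 108 and 239 CPM with the combination, the same order of libraries as IFIH1 within the combination group. ABCE1, an inhibitor of RNase L, fell by 0.78 and by 0.53. Between the treatments OAS2 (-2.18), OAS3 (-1.94) and OAS1 (-1.79) fell and ABCE1 (0.25) rose, and without decitabine replicate 2 or combination replicate 1 or 2 no gene of the list was called.

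Of 20 genes that signal below MAVS, 9 rose and 4 fell with decitabine and 7 rose and 4 fell with the combination, where 36.3% and 35.9% of all genes tested rose, so the share that rose was near that of all genes. IRF7, an interferon-induced transcription factor of interferon genes, rose by 3.16 with decitabine (SE 0.3, edgeR adjusted p = 5.4e-05) and by 1.86 with the combination (SE 0.29, adjusted p = 0.00094), and differed by -1.3 between the treatments (adjusted p = 0.022), a call lost without any 1 decitabine library or combination replicate 1 or 2 (0.054 to 0.08). IRF3, the factor that MAVS signalling activates first, rose by 0.63 (SE 0.06) in both comparisons, from 96.4 to 103 CPM in controls to 150 to 159 CPM in all treated libraries. The kinase gene IKBKE rose by 0.88 with decitabine and TBKBP1 by 0.66 with the combination. FADD fell in both comparisons (-0.51 and -0.48), as did AZI2 (-0.24 and -0.62), whose decitabine value was 0.01 with library size as the only scaling and was not called without control replicate 1 or 2 or decitabine replicate 2 or 3 (adjusted p 0.058 to 0.091), and TOMM70, the mitochondrial partner of MAVS, fell with decitabine (-0.46). Between the treatments, where 8.02% of all genes tested were called lower, 3 genes of the list were lower and none higher. These were IRF7, RIPK1 and AZI2 (-0.39, not called without combination replicate 2).

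RIPK1, a kinase of both the MAVS list and the ZBP1 list, was called in opposite directions. It had 40, 38.2 and 40.7 CPM in controls, 48, 53.2 and 49.9 CPM with decitabine and 25, 25.5 and 31.9 CPM with the combination. The 3 groups did not overlap. RIPK1 rose by 0.35 with decitabine (SE 0.09, edgeR adjusted p = 0.0042), fell by 0.53 with the combination (SE 0.1, adjusted p = 0.0002) and differed by -0.87 between the treatments (SE 0.09, adjusted p = 0.00031). Of the ZBP1 list, CASP8 (0.74) and CFLAR (0.77), a caspase and its inhibitor, rose with decitabine and were lower with the combination than with decitabine (-0.78 and -0.53), the latter not called without decitabine replicate 2 or 3 or combination replicate 1 or 2 (adjusted p 0.063 to 0.11). MLKL, the executor of necroptosis, fell with the combination against controls (-0.56). RIPK3, the kinase through which ZBP1 acts, had at most 2 counts in any library.

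Among 10 cofactors of the receptors 3 rose and 6 fell with decitabine, and 1 rose and 6 fell with the combination. Of all genes tested, 36.3% rose and 32.5% fell with decitabine, and 35.9% and 31.3% with the combination. DDX60 (3.04, SE 0.51, edgeR adjusted p = 0.0017) and ZC3HAV1 (1.27, SE 0.11, adjusted p = 4.6e-07), an RNA-binding antiviral protein, rose with decitabine, and TRIM65, a ubiquitin ligase of MDA5, fell by 1.07 with decitabine and by 0.85 with the combination, as did ZCCHC3 (-0.78 and -0.73). PPP1CA, a phosphatase subunit, fell with decitabine (-0.77) and was higher with the combination than with decitabine (0.34, not called without decitabine replicate 2 or combination replicate 1 or 2). MEX3C rose by 0.28 with decitabine (not called without control replicate 2 or decitabine replicate 2), and ZC3HAV1 rose by 0.73 with the combination. TRIM25, a ubiquitin ligase acting on RIG-I, differed by -0.73 between the combination and controls (SE 0.11, edgeR adjusted p = 8.4e-05) and by -0.67 between the treatments, with 327, 301 and 280 CPM in controls, 327, 276 and 269 CPM with decitabine and 158, 174 and 217 CPM with the combination. Its combination libraries lay below all 6 others. DDX60 (-2.1) and ZC3HAV1 (-0.54) were also lower with the combination than with decitabine, but DDX60 was not called when any 1 library other than combination replicate 3 was left out (adjusted p 0.05 to 0.12), and ZC3HAV1 not without combination replicate 2 (0.051). Among 11 inhibitors, 5 rose and 4 fell with decitabine, 4 rose and 4 fell with the combination, and none was called between the treatments. The counts against controls are to be read beside the shares of all genes given for the cofactors. TNFAIP3, which encodes the ubiquitin-editing enzyme A20, rose by 3.21 with decitabine (SE 0.37, edgeR adjusted p = 0.00016) and by 3.1 with the combination (adjusted p = 0.00021), with the autophagy gene ATG12 (1.01 and 0.99) and the ubiquitin ligase gene RNF122 (1 and 0.91). TKFC fell by 1.23 and by 1.5, PCBP2 by 0.92 and by 1.01 and the deubiquitinase gene OTUD5 by 0.7 and by 0.56.

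In the TLR3 list, UNC93B1, which carries the receptor to endosomes, rose by 1.18 with decitabine (SE 0.09, edgeR adjusted p = 6.9e-08) and by 0.65 with the combination (adjusted p = 2.6e-05), and TICAM1, which encodes the TLR3 adaptor TRIF, by 0.77 and by 0.54. UNC93B1 was lower with the combination than with decitabine (-0.53). The chaperone HSP90B1 fell by 0.44 and by 0.58, but in 7 of 9 fits that each left out 1 library the first was not called (adjusted p 0.066 to 0.12, the exceptions being those without control replicate 3 or combination replicate 2), and the second was not called without combination replicate 1 (0.052). CNPY3 was called in opposite directions (-0.24 with decitabine and 0.22 with the combination), but the first value was 0.01 with library size as the only scaling, both calls were lost without several single libraries (adjusted p 0.055 to 0.13 in 4 cases and 0.051 to 0.17 in 5), and the difference between the treatments was 0.46. For PKR and eIF2 no gene of 13 rose and 5 fell with decitabine, where 32.5% of all genes tested fell. Those that fell included ATF4 (-1.1, SE 0.09, edgeR adjusted p = 1.1e-07), a transcription factor whose translation depends on eIF2α phosphorylation, DNAJC3 (-0.88), an inhibitor of PKR, and DDIT3 (-0.77, not called without control replicate 1 or decitabine replicate 1 or 2). With library size as the only scaling, 5 genes of this list rose and 3 fell, and its median turned from -0.13 to 0.11. With the combination, DDIT3 (-1.59), ATF4 (-1.42) and DNAJC3 (-0.72) fell, and PRKRA, an activator of PKR (0.18), and TARBP2, an inhibitor (0.53), rose. PRKRA was not called without any 1 of the controls or combination replicate 1 or 2 (adjusted p 0.054 to 0.12). Between the treatments TARBP2 (0.41) and PRKRA (0.32) were higher and ATF4 (-0.33) was lower, and the last was not called without any 1 decitabine library or combination replicate 1 or 2 (0.052 to 0.13).

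Among 9 genes of RNA editing and binding, of which 8 were tested, none rose and 5 fell with either treatment, and none was called between the treatments. Of all genes tested, 36.3% rose and 32.5% fell with decitabine, and 35.9% and 31.3% with the combination. The RNA helicase genes DHX9 (-0.95 with decitabine and -1.01 with the combination) and DHX15 (-0.9 and -0.69) fell with adjusted p between 2.4e-07 and 3.6e-06 in edgeR. DHX9 went from 282, 299 and 322 CPM in controls to 177, 156 and 134 CPM with decitabine and 150, 155 and 144 CPM with the combination. Its treated libraries were all below the controls, and the libraries of the treatments overlapped. With library size as the only scaling, 3 genes of this list rose and 5 fell with decitabine.

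The interferon genes that the sensors induce were near the detection limit. IFNB1 had 1, 1 and 0 counts in controls, 13, 10 and 27 with decitabine and 0, 2 and 16 with the combination, and IFNL1 had 1, 0 and 0, then 7, 10 and 22, then 4, 4 and 3 counts. The decitabine libraries were above the controls for both. The ratio of summed counts of decitabine to control was 21.3 for IFNB1 (95% counting interval 5.58 to 180; log2 fold change 4.2, SE 1.2, edgeR adjusted p = 0.0088) and 33.2 for IFNL1 (5.61 to 1340, not tested). Like TLR3 and ZBP1, IFNB1 passed the filter only through treated libraries and so had to differ. IFNL2 was without counts in controls and at least 6.52-fold higher with decitabine, with 3 counts over the control group taken as the floor. Among the receptors, IL10RB rose by 0.68 and by 0.61, and IFNAR1 fell by 0.29 with decitabine, a value of -0.05 (adjusted p = 0.64) with library size as the only scaling.

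**Figure D4:**
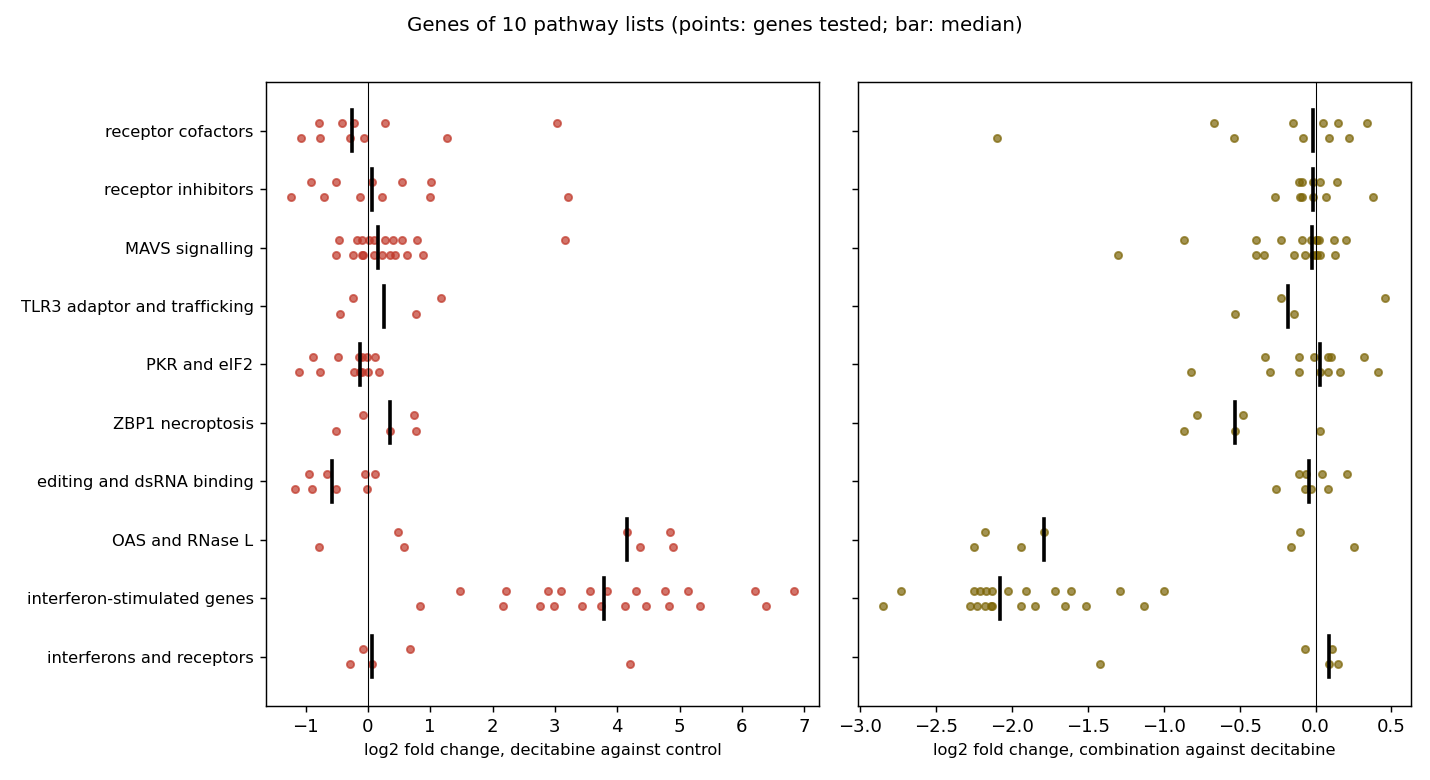
Log2 fold changes (horizontal axes) of the genes tested in 10 pathway lists, for decitabine against control (left) and the combination against decitabine (right); points are genes and bars list medians. The interferon-stimulated genes and the OAS list stood apart, with medians of 3.78 and 4.15 on the left and -2.08 and -1.79 on the right.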

How the data were processed

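Total RNA of PC-3 cells was sequenced on the BGISEQ-500 platform. According to the study's methods, reads were quality-controlled with FastQC and TrimGalore, related to GRCh38 and counted with kallisto. The authors deposited estimated counts per Ensembl gene, not normalized. The deposited log2 CPM files were not used. The labels' extraction text describes DNA, whereas these files hold RNA counts. The annotation release is not given in the sources used here, and 60357 of 60617 identifiers were matched to GENCODE release 44.

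The estimated counts were rounded, and filterByExpr kept 18532 genes. The quasi-likelihood test of edgeR 4.0.16 (R 4.3.3) was fitted to all 9 libraries with TMM scaling, robust estimation and 1 mean per group. Benjamini-Hochberg adjustment covered all 18532 genes, and calls were made at 0.05. Groups came from the treatment labels and doses from the study's methods. Nothing states that replicates came from separate cultures, so p-values measure the spread between these libraries, which may be technical. No library was a copy of another. Intervals of ratios and the floor of 3 counts cover counting error only. Profiles used log2 CPM with a prior count of 2.

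The 8 genes and the pathway lists were chosen with earlier results of these data known. All 8 genes are named, and from each list and comparison up to 3 called genes with the largest changes in each direction, and genes called in opposite directions. Some results on single genes are left out here. The alternatives replaced TMM by the size factors of DESeq2 or by library size, the test by that of DESeq2 1.42.0 or by voom with limma 3.58.1, and the filter by none or by a mean of 10 counts. Others fitted the 2 groups alone, added a replicate block, required a log2 fold change over 1 or left out each library. The test was tested on simulated data. Tables and intervals were made with pandas 2.3.3 and scipy 1.17.1, and figures with matplotlib 3.10.9.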

Additional observations from a re-analysis of the deposited data

How the results depend on the processing

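Of 376 member values under the alternatives, 322 kept their direction and their side of the threshold, 41 lost the call, 6 gained it and 7 changed sign. The increases of RIGI and IFIH1 with decitabine were called under every alternative listed. The sign changed only for combination against control: EIF2AK2 to 0.04 and ADAR to 0.21 with library size alone, ADAR to 0.00 with a mean of at least 10 counts, to 0.01 with 6 libraries and to 0.13 and 0.03 without combination replicates 1 and 2, and ZBP1 to -0.54 without combination replicate 3. Leaving out 1 library at a time gave -0.54 to 2.59 for ZBP1 and -0.24 to 0.13 for ADAR in this comparison. The cause was not tested.

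Counts of called genes moved by over 1.5 times as follows. With library size alone, 0 members fell with decitabine, and 18 pathway genes did. Without a filter, 2 members fell with the combination. With the 6 libraries compared alone, 3 members and 17 pathway genes were lower in the combination than in decitabine libraries. Requiring a log2 fold change over 1 left 0 members lower in any comparison; of the pathway genes it left 30 higher and 1 lower with decitabine, 8 and 3 with the combination, and 0 and 0 between the treatments. Leave-one-out fits gave 1 to 3 members lower in the combination than in controls and 2 to 7 lower than with decitabine, and 2 to 6 pathway genes higher and 10 to 43 lower than with decitabine. The nearest profiles shared 3 of 21 genes when only treated libraries were used. TLR3 and ZBP1 did not pass the filter of the 6 libraries for the combination against controls, so no value was obtained.

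Same-numbered libraries did not deviate together throughout: correlations of deviations from the group means were 0.233, 0.036 and 0.229 between decitabine and combination libraries and -0.017 to 0.069 for pairs with controls. Between the treated groups each library correlated best with its own number, a hint from the data and not from the design. With the replicate number as a block, 5 members instead of 6 were lower in the combination than with decitabine (RIGI -2.16, adjusted p = 0.052 in edgeR), and 2 instead of 3 were higher than controls (TLR3 2.75, adjusted p = 0.067). Few counts limit DHX58, TLR3 and ZBP1: between the combination and controls DHX58 was not tested, ZBP1 was not called, and TLR3 was called with all libraries but not without combination replicate 3 and several others.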
